A study of Mus musculus with 84 samples.

Results

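Metabotropic glutamate receptors are cell-surface proteins that sense glutamate and signal through G proteins, and 6 of their genes, Grm2, Grm3, Grm4, Grm5, Grm7 and Grm8, were followed here in bulk RNA sequencing of mouse brain. They were taken by symbol from the table of gene read counts, so they are 6 of its 43629 genes, and each of the 6 matched 1 gene identifier. The tissue was ventrolateral striatum, dissected by hand from the brains of 84 naive adult mice. Of these, 44 carried the label High Drinker (21 females and 23 males) and 40 the label Low Drinker (18 females and 22 males). The series title names the SOT and NOT lines, bred for ethanol preference and ethanol withdrawal at the same time, and its design text names generation S4. None of the animals had received any treatment, so the values describe what the lines carried at rest. The labels do not say which of SOT and NOT is the High Drinker group, and they name no families or replicate lines. Selection and chance differences between 2 bred lines therefore cannot be told apart, and the tests below measure the spread between these animals.

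Glutamate released at a synapse opens ion channels within milliseconds, and the metabotropic receptors adjust that transmission more slowly. Grm5 encodes mGlu5, a group I receptor that acts through Gq proteins and phospholipase C to release calcium from internal stores, and it is abundant on the spines of striatal medium spiny neurons. Grm2 and Grm3 encode the group II receptors, and Grm4, Grm7 and Grm8 encode group III receptors of the brain, all of which act through Gi and Go proteins to lower cyclic AMP and, at nerve endings, to reduce transmitter release. mGlu2 is best known as a brake on the endings of cortical neurons that enter the striatum, whose RNA is made in cortex, and mGlu3 is found on astrocytes as well as neurons. mGlu4 sits on the endings of striatal neurons in the globus pallidus, mGlu7 at the release site of many synapses, and mGlu8 on a smaller set of endings.

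The genes all lie apart in the mm10 genome, and only Grm7 and Grm8 share a chromosome, at distant positions on chromosome 6. Grm2 (ENSMUSG00000023192) runs over chr9:106644537-106656109 on the minus strand and Grm3 (ENSMUSG00000003974) over chr5:9485236-9725352 on the minus strand. Grm4 (ENSMUSG00000063239) runs over chr17:27422387-27513341 on the minus strand and Grm5 (ENSMUSG00000049583) over chr7:87602544-88134907 on the plus strand. Grm7 (ENSMUSG00000056755) runs over chr6:110645581-111567230 on the plus strand and Grm8 (ENSMUSG00000024211) over chr6:27275121-28135178 on the minus strand. Reads were counted over exons, whose joined length was 3320 bases in Grm2, 3536 in Grm3, 5318 in Grm4, 7970 in Grm5, 5886 in Grm7 and 7850 in Grm8. By the deposited exon positions, 96 exon bases of Grm8 overlapped the microRNA gene Mir592 on the same strand. On the opposite strand, 130 exon bases of Grm7 overlapped Gm20387. Of the 4987 stretches of 100 bases in the GENCODE transcripts of Grm2, 371 (7.44%) also occurred in the annotated gene Gm28111. Of those in Grm7, 31 (0.522%) occurred in Gm20387. No such stretch was shared with another gene in Grm3, Grm4, Grm5 or Grm8, and none of the 6 genes shared one with another of the 6.

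Promoters are shown for Grm2, Grm8, Grm3 and Grm7, the genes for which a start site was on hand. RefSeq start sites (GRCm38.p6, the same assembly as mm10) were found for these 4 of the 6 genes, with 7 start sites in all, and the 250 bases before the first listed start are printed 5′ to 3′ on the strand of the gene, with each GGGCGG in capitals. That letter string, searched on both strands, is the core of the GC box. Grm2 is at chr9:106656110-106656359 (minus strand), Grm8 at chr6:28135147-28135396 (minus strand), Grm3 at chr5:9725353-9725602 (minus strand) and Grm7 at chr6:110645262-110645511 (plus strand).
Grm2: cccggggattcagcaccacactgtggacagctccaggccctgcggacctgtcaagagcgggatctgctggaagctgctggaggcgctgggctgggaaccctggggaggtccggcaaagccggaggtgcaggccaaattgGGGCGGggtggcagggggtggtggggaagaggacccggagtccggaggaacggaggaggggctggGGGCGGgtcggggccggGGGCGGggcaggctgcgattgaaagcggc
Grm8: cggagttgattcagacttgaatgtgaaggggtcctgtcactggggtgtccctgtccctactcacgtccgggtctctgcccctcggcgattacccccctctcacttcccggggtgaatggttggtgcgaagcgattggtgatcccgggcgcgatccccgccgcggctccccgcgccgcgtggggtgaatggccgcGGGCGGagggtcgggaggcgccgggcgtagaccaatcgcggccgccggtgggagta
Grm3: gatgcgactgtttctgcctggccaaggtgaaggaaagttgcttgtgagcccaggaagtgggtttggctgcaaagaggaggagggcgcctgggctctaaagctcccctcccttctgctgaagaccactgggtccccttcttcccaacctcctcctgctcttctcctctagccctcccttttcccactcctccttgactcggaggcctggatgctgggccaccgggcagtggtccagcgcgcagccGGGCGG
Grm7: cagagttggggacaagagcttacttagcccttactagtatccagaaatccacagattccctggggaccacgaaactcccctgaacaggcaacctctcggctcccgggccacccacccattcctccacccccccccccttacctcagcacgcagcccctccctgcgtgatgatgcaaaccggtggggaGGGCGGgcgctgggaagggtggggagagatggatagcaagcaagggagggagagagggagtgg
GGGCGG occurred 3 times before Grm2 and once before each of Grm8, Grm3 and Grm7, and 32.7% of the 32851 RefSeq promoters of this length held it on either strand. Neither TGACGTCA, the full cyclic AMP response element (in 1.55% of promoters), nor CANNTG, the E-box (in 66.2%), occurred in these 4 windows. The Grm2 and Grm8 windows were the richer in G and C, at 71.2% and 68.4%, against 62.4% for Grm3 and 62% for Grm7, and the median promoter stood at 52.4%. The Grm8 window held 29 CpG pairs and the Grm2 window 16, while Grm3 and Grm7 held 8 each and the median promoter 6. That contrast holds for the first listed start only, since 2 further Grm8 start sites had 54.4% and 43.6% G and C with 8 and 2 CpG pairs, and the third held 1 E-box match. The second Grm7 start site had 65.2% G and C with 9 CpG pairs. All these values describe letters in a window and were not tied to any binding or to how the transcripts varied.

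Libraries held 22190363 to 41300401 counts in all, and the lowest count of any receptor gene in any library was 112 reads, for Grm2 in High Drinker 17. All 13 medium spiny neuron markers were detected in each of the 84 libraries, and the dopamine target Ppp1r1b, which marks these neurons, had a median normalised count of 756 CPM (counts scaled to library size) with a range from 79.9 to 2630. Markers of cortical glutamatergic neurons were present too. Slc17a7, the vesicular glutamate transporter of cortical neurons, had a median of 1255 CPM with a range from 98.8 to 2418. RNA of striatal and of cortical marker genes was therefore detected in every library, in amounts that differed widely between libraries. Some striatal markers came close to 0, with lowest values of 0.555 CPM for Gpr6, 1.16 for Drd2 and 1.84 for Adora2a. How much striatum each library held was not measured. The summed CPM of the 13 striatal markers ran from 532 to 11329 in High Drinker and from 334 to 9554 in Low Drinker libraries. That of 8 cortical markers ran from 167 to 2450 in High Drinker and from 418 to 2991 in Low Drinker libraries, and none of these 21 markers was at 0 in any library. In bulk tissue, fewer cells of a type and less RNA per cell cannot be told apart. Separately, 5 libraries (High Drinker 17 and Low Drinker 8, 32, 33 and 34) had the lowest median correlation with all others, and results that rest on them are given with and without them.

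Grm5 was the most abundant of the 6 genes when levels were compared per length of transcript. On the TPM scale, computed from the counts and the deposited gene lengths, its median over 84 libraries was 114.9, with a range from 35.9 to 208.6. Grm3 followed with a median of 76.3 TPM, Grm4 with 48.3, Grm7 with 41.4 and Grm2 with 34.7, and Grm8 was the scarcest with 7.29 TPM. Against all tested genes, Grm5 stood at the 88.8th percentile of median TPM and Grm8 at the 32.2nd. Grm8 was below each of the other receptors in 84 of 84 libraries, Grm5 exceeded Grm3 in 76, and Grm3 exceeded Grm4 in 80. The middle of the order was less fixed. Grm4 exceeded Grm7 in 59 of the 84 libraries and Grm7 exceeded Grm2 in 51, so the ranges of these neighbours overlapped and their order changed from animal to animal.

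**Figure D1:**
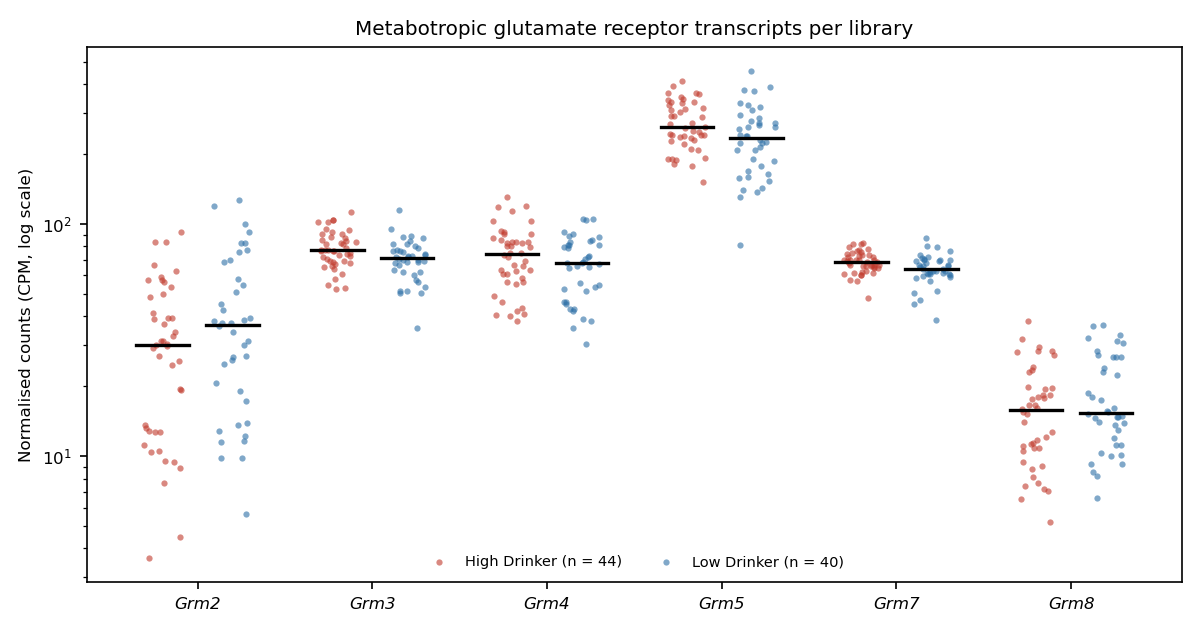
Normalised counts (CPM, log scale) of the 6 receptor genes, 1 point per library, High Drinker (n = 44) left of Low Drinker (n = 40), with black lines at the group medians. Grm2 spreads over more than an order of magnitude in both groups, Grm7 stays between 38.6 and 86.8 CPM, and the High and Low Drinker points overlap for every gene.

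The 6 genes differed widely in how much they varied between animals. The SD of log2 CPM over the 84 libraries was 1.15 for Grm2 and 0.69 for Grm8, at the 97.8th and 91.2nd percentile of the 16537 tested genes, whose median was 0.26. It was 0.47 for Grm4, 0.45 for Grm5, 0.29 for Grm3 and 0.20 for Grm7. Grm7, at the 33.9th percentile, was thus steadier than most genes, and its highest library held 2.25 times the CPM of its lowest. For Grm2 that ratio was 34.8. Grm8 spanned 7.32-fold, Grm5 5.60-fold, Grm4 4.27-fold and Grm3 3.22-fold.

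The first comparison of the design asked whether expression differed between the High and Low Drinker animals. None of the 6 receptor genes passed the threshold of the line comparison (edgeR quasi-likelihood test, Benjamini-Hochberg adjusted p under 0.05 over 16537 genes), where 3.94% of all tested genes did. At an unadjusted p under 0.05, 1 of the 6 receptors was counted by edgeR, 1 by DESeq2 and 2 by limma-voom, against 18.3% of all tested genes by edgeR, and both other tools also called 0 after adjustment. The values below are log2 fold changes, High Drinker minus Low Drinker, from the model with sheet set, sex and line.

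The group I receptor gene Grm5 ranged from 151 to 413 CPM with a median of 261 in High Drinker libraries, and from 81.2 to 454 CPM with a median of 234 in Low Drinker libraries. The 2 groups overlapped almost fully, and Low Drinker animals held both the lowest and the highest library, Low Drinker 34 and Low Drinker 1. The means were 273 ± 64.7 CPM among High Drinker and 239 ± 80.7 CPM among Low Drinker animals (SD, n = 44 and 40). The log2 fold change was 0.12 (95% interval -0.06 to 0.29, adjusted p = 0.508 in edgeR), and 32 of 44 High Drinker libraries lay above the Low Drinker median.

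Of the group II receptor genes, Grm3 ranged from 52.6 to 113 CPM with a median of 76.9 in High Drinker libraries, and from 35.6 to 115 CPM with a median of 71.3 in Low Drinker libraries. Its groups overlapped over most of their range, with the lowest library, Low Drinker 8, standing among those with low correlation to the rest. The means were 78.5 ± 14.3 CPM among High Drinker and 70.7 ± 14.3 CPM among Low Drinker animals, and 30 of 44 High Drinker libraries lay above the Low Drinker median. Grm3 had the lowest p of the 6 genes, with a log2 fold change of 0.13 (95% interval 0.0079 to 0.26), an unadjusted p of 0.0375 and an adjusted p of 0.241 in edgeR. Within sheet sets 1 and 2 the log2 fold change of Grm3 was 0.15 and 0.10, and it was 0.10 without the 5 libraries with low correlation, where the unadjusted p was 0.114.

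Grm2 ranged from 3.63 to 92.4 CPM with a median of 30.2 in High Drinker libraries, and from 5.63 to 126 CPM with a median of 36.8 in Low Drinker libraries. Its lowest libraries were High Drinker 17 and High Drinker 4 and its highest Low Drinker 33 and 32, with wide overlap between. The means were 33.4 ± 22.7 CPM among High Drinker and 43.3 ± 31.3 CPM among Low Drinker animals. The log2 fold change of Grm2 was -0.19, with a 95% interval from -0.66 to 0.28 and an adjusted p of 0.731 in edgeR. That interval runs in fold terms from 0.632 to 1.21, so the spread of this gene left differences of that size within the interval.

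Among the group III receptor genes, Grm4 ranged from 38.1 to 130 CPM with a median of 74.2 in High Drinker libraries, and from 30.5 to 105 CPM with a median of 67.9 in Low Drinker libraries. The highest library was High Drinker 4 and the lowest Low Drinker 32, and the groups overlapped between them. Its log2 fold change was 0.10 (95% interval -0.09 to 0.30, adjusted p = 0.630 in edgeR). Grm7 ranged from 48.01 to 82.9 CPM with a median of 68.3 in High Drinker libraries, and from 38.6 to 86.8 CPM with a median of 64.1 in Low Drinker libraries. The Low Drinker range enclosed the High Drinker range, and 34 of 44 High Drinker libraries lay above the Low Drinker median. The log2 fold change of Grm7 was 0.08, with a 95% interval from -0.00063 to 0.17, an unadjusted p of 0.0517 and an adjusted p of 0.277 in edgeR. Grm8 ranged from 5.19 to 37.99 CPM with a median of 15.7 in High Drinker libraries, and from 6.58 to 36.5 CPM with a median of 15.3 in Low Drinker libraries. Its groups were nearly coextensive, and its log2 fold change was -0.09 (95% interval -0.39 to 0.20, adjusted p = 0.808 in edgeR).

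Measures of tissue and library composition also had different medians in the groups, and their part in these differences was not tested. The medium spiny neuron score, the mean over its 13 markers of log2 CPM centred on each gene, had a median of 0.36 among High Drinker and 0.18 among Low Drinker libraries, and the 4 lowest scores were Low Drinker 32, 33, 34 and 35. With that score and the cortical score in the model, the log2 fold change was -0.08 for Grm2 and 0.02 for Grm4, while it was 0.12 for Grm3 and 0.08 for Grm7. A length score, the median centred log2 CPM of the longest 10% of tested genes minus that of the shortest 10%, had a median of 0.08 among High Drinker and -0.02 among Low Drinker libraries. With the length score in the model the log2 fold change was 0.06 for Grm3 and 0.03 for Grm7, and it was -0.38 for Grm2 and -0.25 for Grm8. Without the 5 libraries with low correlation the log2 fold change was -0.11 for Grm2, 0.06 for Grm4, 0.06 for Grm5, 0.06 for Grm7 and -0.08 for Grm8. The adjusted p values in edgeR under the 2 models with scores ran from 0.216 to 0.815, and none of the 6 genes passed.

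**Figure D2:**
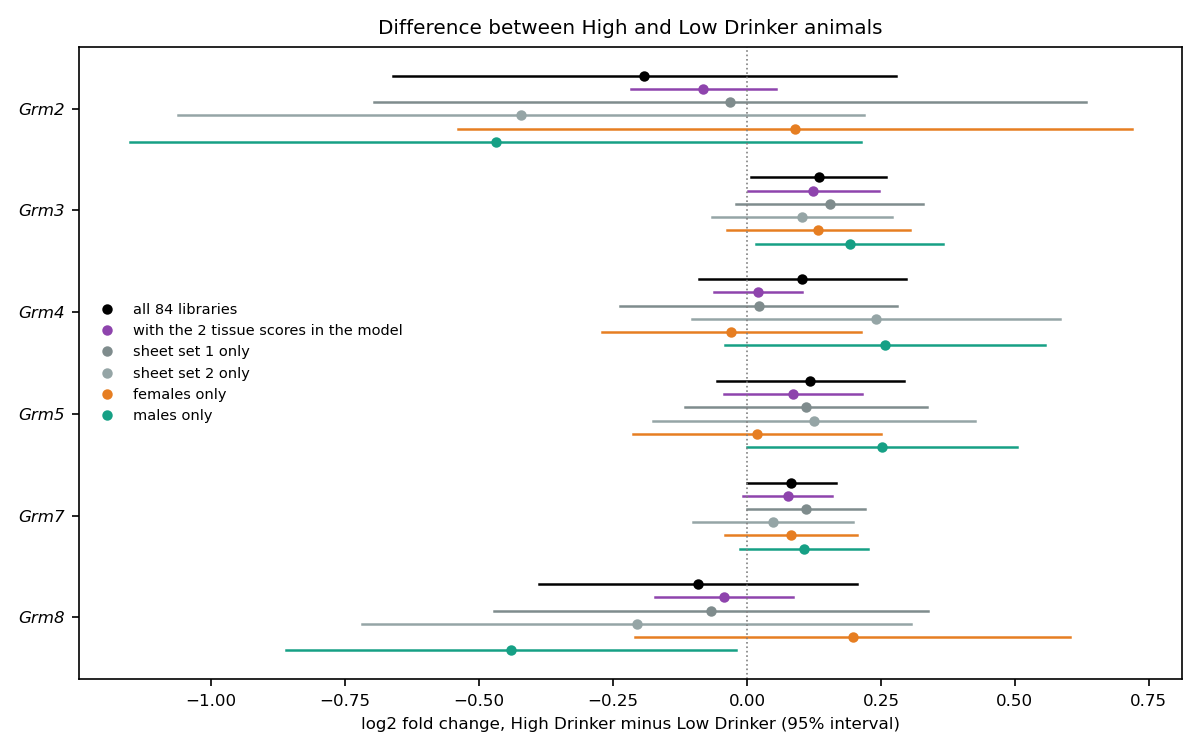
Log2 fold change, High Drinker minus Low Drinker, of each receptor gene with its 95% interval, from all 84 libraries and from 5 other fits. Intervals of Grm2 narrow most when the 2 tissue scores are in the model, and the points of Grm2, Grm4 and Grm8 change side between females only and males only.

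In the second comparison, between females and males, none of the 6 genes passed the threshold, where 0.0907% of tested genes did, and 0 of the 6 had an unadjusted p under 0.05 by edgeR or limma-voom, against 3.68% of tested genes by edgeR. The log2 fold changes, female minus male, ran from -0.03 for Grm8 to 0.08 for Grm4. That of Grm2 was 0.03, and it depended on the model. With the 2 tissue scores in the model it was 0.27 (unadjusted p = 0.000191, adjusted p = 0.109 in edgeR), and without the 5 libraries with low correlation it was 0.25 (unadjusted p = 0.271). Grm5 averaged 259 ± 63.7 CPM in 39 females and 255 ± 82.9 CPM in 45 males, and Grm2 averaged 37.1 ± 23.9 CPM in females and 39.04 ± 30.4 CPM in males. The interval of the female minus male log2 fold change was narrowest for Grm7, at -0.03 to 0.13, and widest for Grm2, at -0.44 to 0.49.

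Grm2, Grm4 and Grm8 had opposite signs of the line difference in the 2 sexes, and the difference between sexes did not pass its own test. In females, Grm2 had a median of 32.9 CPM among High Drinker and 28.5 CPM among Low Drinker animals, and in males the medians were 24.6 CPM among High Drinker and 38.8 CPM among Low Drinker animals. Grm8 had a female median of 16.6 CPM among High Drinker and 14.7 CPM among Low Drinker animals, against male medians of 15.1 CPM among High Drinker and 18.4 CPM among Low Drinker animals. The interaction, the line log2 fold change in females minus that in males, was 0.60 for Grm2 (95% interval -0.30 to 1.49, unadjusted p = 0.190 in edgeR) and 0.52 for Grm8 (95% interval -0.04 to 1.09, unadjusted p = 0.0703). The adjusted p in edgeR was 0.774 or higher for each of the 6 genes. None of the 6 passed, and 0% of tested genes did. At an unadjusted p under 0.05 the count was 0 of 6 by edgeR and by limma-voom, against 5.76% of tested genes by edgeR.

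The design text also names differential variance, and the 6 genes were compared for the distance of each animal from the median of its line and sex. None passed in limma, where 0.0121% of tested genes did, and 0 of 6 had an unadjusted p under 0.05, against 3.95% of tested genes. Grm5 came nearest. The SD of its log2 CPM was 0.35 among High Drinker and 0.51 among Low Drinker animals, and its mean absolute deviation differed by -0.11, High Drinker minus Low Drinker (unadjusted p = 0.0580, adjusted p = 0.975 in limma). For Grm7 the SD was 0.16 among High Drinker and 0.22 among Low Drinker animals, and for Grm2 it was 1.15 among High Drinker and 1.13 among Low Drinker animals. The lowest Grm5 libraries were Low Drinker 34, 33 and 8, at 81.2, 131 and 137 CPM. The lowest Grm7 libraries were Low Drinker 8 and 34, at 38.6 and 45.4 CPM. All of these were among the 5 libraries with low correlation. Without those 5 libraries, again 0 of the 6 genes had an unadjusted p under 0.05 in limma.

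Over the 84 libraries the receptor genes varied in 2 opposed sets. Grm2 and Grm8 were high together, and in the libraries where they were high, Grm4 and Grm5 were low. Grm5 was also high where Grm7 and Grm3 were high. Of the 15 pairs, 12 passed the threshold (permutation test with 100000 resamples, two-sided, Benjamini-Hochberg over 15 pairs), 6 with a positive and 6 with a negative correlation of log2 CPM.

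Grm2 and Grm8 had the strongest positive correlation, with Pearson r = 0.87 and Spearman rho = 0.88 (permutation p = 1e-05 for both, the smallest that the permutations can give, adjusted p = 1.67e-05). In High Drinker 17 both were at their lowest, with 3.63 CPM of Grm2 and 5.19 CPM of Grm8, and High Drinker 43, with the highest Grm8 at 37.99 CPM, had 83.4 CPM of Grm2. The correlation was 0.86 among High Drinker and 0.88 among Low Drinker animals, 0.87 in sheet set 1 and 0.84 in sheet set 2, and 0.86 without the 2 libraries farthest from the median of Grm2.

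Grm4 ran against both of them. Its Pearson r was -0.84 with Grm2 (rho -0.85) and -0.84 with Grm8 (rho -0.85), each with permutation p = 1e-05 and adjusted p = 1.67e-05. High Drinker 4, with the highest Grm4 at 130 CPM, had 4.47 CPM of Grm2 and 7.20 CPM of Grm8, and Low Drinker 32, with the lowest Grm4 at 30.5 CPM, had 119 CPM of Grm2 and 30.7 CPM of Grm8. Between Grm4 and Grm2 the correlation was -0.82 in sheet set 1 and -0.93 in sheet set 2, and -0.83 without the 2 farthest libraries. Between Grm4 and Grm8 it was -0.82 and -0.87 in the 2 sets, and -0.84 without the 2 farthest libraries. All 3 of these genes encode receptors that act through Gi and Go proteins, and the opposed Grm4 and Grm8 both belong to group III.

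Grm5 and Grm7 correlated at r = 0.73 (rho 0.70), Grm3 and Grm7 at 0.65 (rho 0.50), and Grm3 and Grm5 at 0.54 (rho 0.48), each with permutation p = 1e-05 and adjusted p = 1.67e-05. For Grm5 and Grm7 the correlation was 0.66 in sheet set 1 and 0.79 in sheet set 2, and 0.68 without the 2 farthest libraries. For Grm3 and Grm7 it was 0.71 and 0.53 in the 2 sets and 0.56 without the 2 farthest libraries, and for Grm3 and Grm5 0.57 and 0.43 in the 2 sets and 0.51 without the 2 farthest. Low Drinker 8 had the lowest Grm3, 35.6 CPM, and the lowest Grm7, 38.6 CPM, and Low Drinker 1 the highest of both, at 115 CPM of Grm3 and 86.8 CPM of Grm7. Grm5 also correlated with Grm4 (r = 0.66, rho 0.68), Grm2 (r = -0.69, rho -0.70) and Grm8 (r = -0.56, rho -0.59), each again at permutation p = 1e-05.

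The weaker relations involved Grm7. Its correlation was 0.33 with Grm4, -0.24 with Grm2 and -0.23 with Grm8, with adjusted permutation p of 0.00289, 0.0382 and 0.0478, and none of these 3 passed within either sheet set. Grm3 did not correlate past the threshold with Grm2 (r = -0.11), Grm4 (r = 0.18) or Grm8 (r = 0.03), with adjusted permutation p of 0.320, 0.120 and 0.797. With sheet set, sex, line and the length score removed, 2 of these 3 did pass, Grm2 with Grm3 at r = -0.29 (adjusted permutation p = 0.00804) and Grm3 with Grm4 at r = 0.30 (adjusted permutation p = 0.00659). In that setting Grm7 had r = 0.51 with Grm4, -0.52 with Grm2 and -0.61 with Grm8, each at an adjusted permutation p of 1.5e-05. With the 2 tissue scores removed too, these were 0.17, -0.03 and -0.37. Of them only Grm7 with Grm8 still passed (adjusted permutation p = 0.0032).

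**Figure D3:**
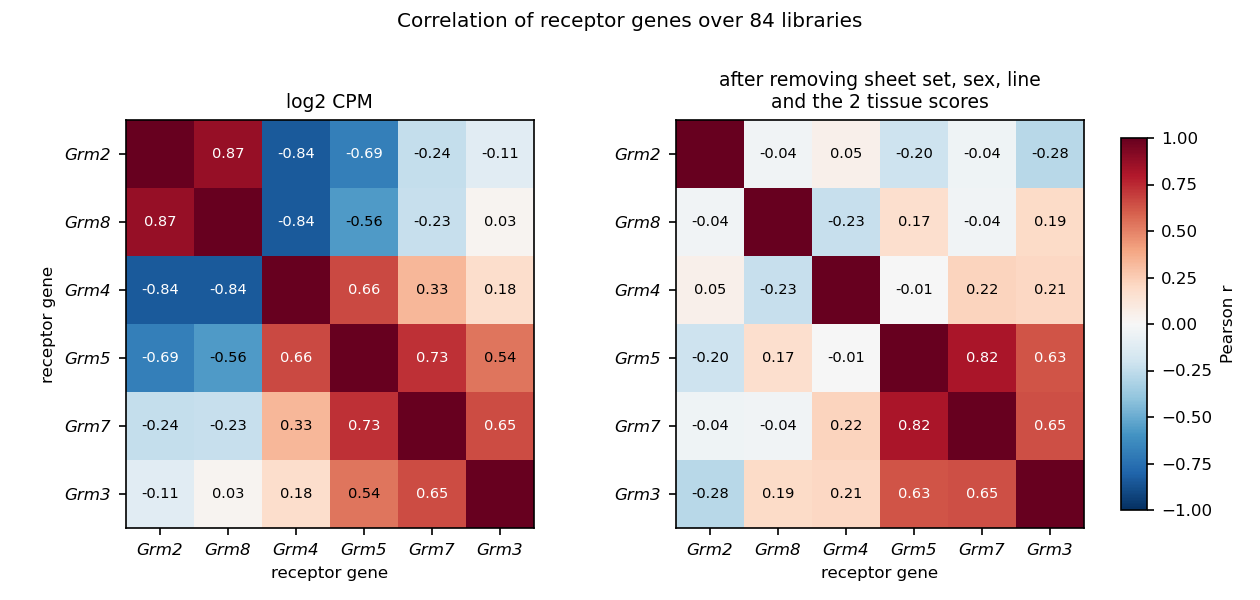
Pearson correlation of log2 CPM between the 6 receptor genes over 84 libraries, before (left) and after (right) removing sheet set, sex, line and the 2 tissue scores from each gene. The block of Grm2, Grm8 and Grm4 on the left, with values from -0.84 to 0.87, lies between -0.23 and 0.05 on the right, while Grm5, Grm7 and Grm3 keep 0.63 to 0.82.

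The opposed sets ran along with the marker genes of the tissue. Of 66 correlations between a receptor gene and a marker score, 35 passed (permutation test, Benjamini-Hochberg over 66), 19 positive and 16 negative. With the medium spiny neuron score Grm4 had r = 0.90 (rho 0.92) and Grm5 r = 0.75 (rho 0.76), while Grm2 had r = -0.87 (rho -0.93) and Grm8 r = -0.82 (rho -0.88), each at an adjusted permutation p of 2.87e-05. Grm7 had r = 0.28 (adjusted permutation p = 0.0181) and Grm3 r = 0.18 (0.153), and that of Grm7 did not pass within either sheet set. With the cortical score the signs turned round, at 0.94 for Grm2 and 0.89 for Grm8 against -0.84 for Grm4 and -0.61 for Grm5, while Grm7 at -0.22 and Grm3 at 0.02 did not pass. The 2 scores themselves had r = -0.82 over the 84 libraries.

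These relations held at similar size inside each sheet set. With the medium spiny neuron score, Grm2 had r = -0.90 in sheet set 1 and -0.88 in sheet set 2, Grm4 0.92 and 0.90, Grm5 0.69 and 0.71, and Grm8 -0.86 and -0.77. The 5 libraries with the lowest medium spiny neuron score (Low Drinker 32, 33, 34 and 35 and High Drinker 43) lay apart from the rest on that axis. Without them, r was -0.88 for Grm2, 0.91 for Grm4, 0.68 for Grm5 and -0.86 for Grm8.

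**Figure D4:**
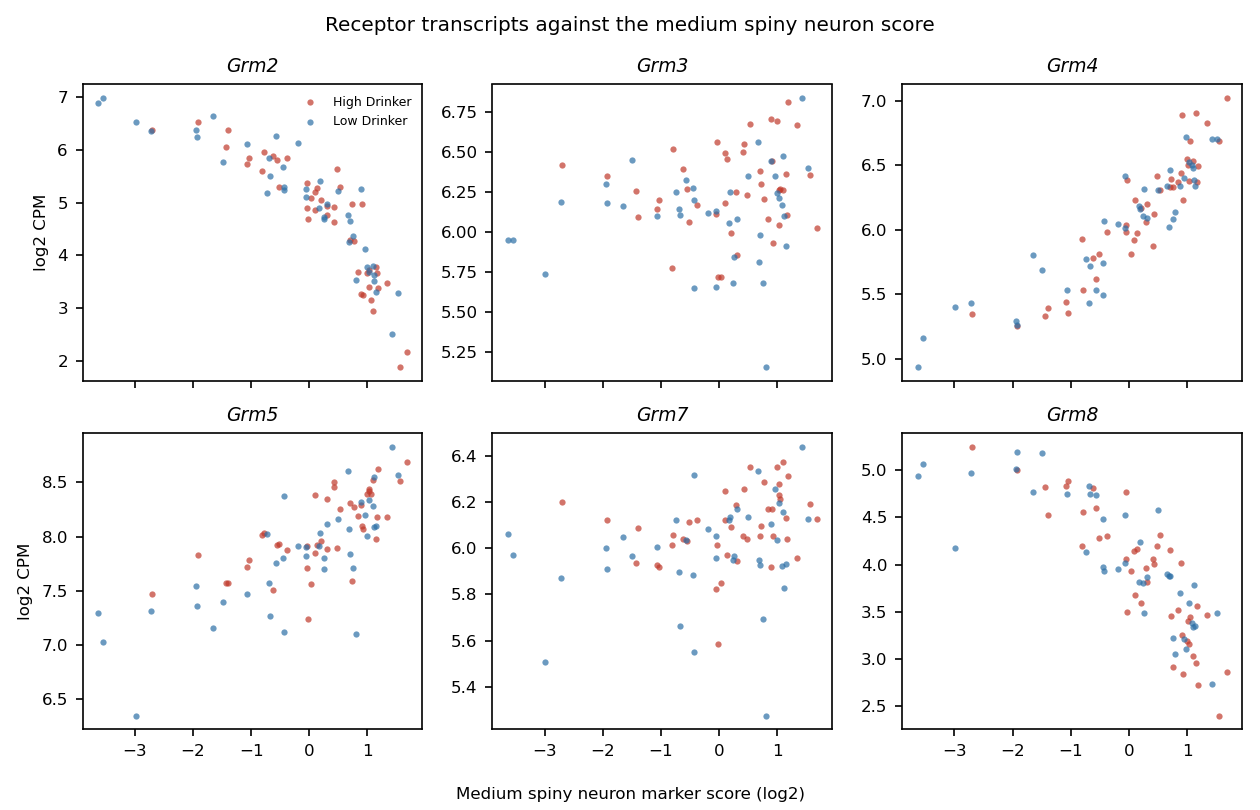
Log2 CPM of each receptor gene against the medium spiny neuron marker score (log2 scale), 1 point per library, High Drinker in red and Low Drinker in blue. Grm4 and Grm5 climb with the score (r = 0.90 and 0.75), Grm2 and Grm8 descend (r = -0.87 and -0.82), and Grm3 and Grm7 are nearly level (r = 0.18 and 0.28).

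In a joint linear fit, the 2 scores accounted for 91.5% of the variance of log2 CPM over libraries for Grm2, 84.5% for Grm4, 81.3% for Grm8 and 56.1% for Grm5. For Grm3 the share was 11.3% and for Grm7 8.15%. After sheet set, sex, line and both scores were removed from each gene, the correlation was -0.04 between Grm2 and Grm8, 0.05 between Grm2 and Grm4 and -0.23 between Grm4 and Grm8, and 4 of the 15 pairs still passed. Those 4 were Grm5 with Grm7 (r = 0.82), Grm3 with Grm7 (r = 0.65), Grm3 with Grm5 (r = 0.63) and Grm2 with Grm3 (r = -0.28). The scores hold none of the 6 receptor genes, but they come from the same libraries.

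Other marker lists went along with the same genes. With the striatal interneuron score r was 0.79 for Grm4 and -0.75 for Grm8, and with the score of pallidal and septal neighbours 0.75 for Grm4 and -0.77 for Grm2. With the ependyma and choroid plexus score it was 0.61 for Grm4 and -0.60 for Grm2, and with the microglia score 0.48 for Grm4 and -0.56 for Grm2. Grm4 with the microglia score did not pass in sheet set 2 (r = 0.32, adjusted permutation p = 0.151). With the claustrum and endopiriform score r was 0.45 for Grm5 and -0.40 for Grm8. Among Low Drinker animals these 2 were 0.60 and -0.54, and among High Drinker animals they were 0.12 and -0.22 and did not pass. With the astrocyte score the highest was 0.33, for Grm5, and Grm3 had 0.15, which did not pass. Without the 5 libraries with low correlation, that of Grm5 was 0.21 and did not pass (adjusted permutation p = 0.104). With the oligodendrocyte precursor score Grm4 had the highest, 0.35. The 1 correlation of Grm3 that passed was with the endothelial score (r = -0.27, adjusted permutation p = 0.0282). Without the 5 libraries with low correlation it was -0.23 and did not pass (adjusted permutation p = 0.0788), nor did it pass within sheet set 1 or 2. With the oligodendrocyte score Grm7 passed alone (r = -0.27, adjusted permutation p = 0.0260).

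Over all 84 libraries, Grm7 and Grm3, and more weakly Grm5, ran along with the length score. This measure over all tested genes was added after the data had been seen. As a description over 84 libraries with no test, r with the length score was 0.67 for Grm7, 0.56 for Grm3, 0.39 for Grm5, 0.33 for Grm8, 0.25 for Grm2 and -0.12 for Grm4. The score alone accounted for 45.5% of the variance of log2 CPM of Grm7 and 31.8% of that of Grm3. Low Drinker 8, the lowest library for both genes, also had the lowest length score, -0.92. Without the 5 libraries with low correlation to the rest, r was 0.60 for Grm7 and 0.46 for Grm3. Over all libraries rho was lower than r, at 0.54 for Grm7 and 0.49 for Grm3. Among Low Drinker animals r was 0.80 for Grm7, 0.66 for Grm3, 0.42 for Grm5, 0.31 for Grm8 and 0.23 for Grm2. Among High Drinker animals it was 0.37 for Grm7, 0.36 for Grm3 and 0.21 for Grm5. Those values were no larger than 0.48 for Grm8, 0.38 for Grm2 and, with the opposite sign, -0.37 for Grm4. After the length score was removed as well as the 2 tissue scores, r was 0.51 between Grm5 and Grm7, 0.40 between Grm3 and Grm7 and 0.35 between Grm3 and Grm5.

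**Figure D5:**
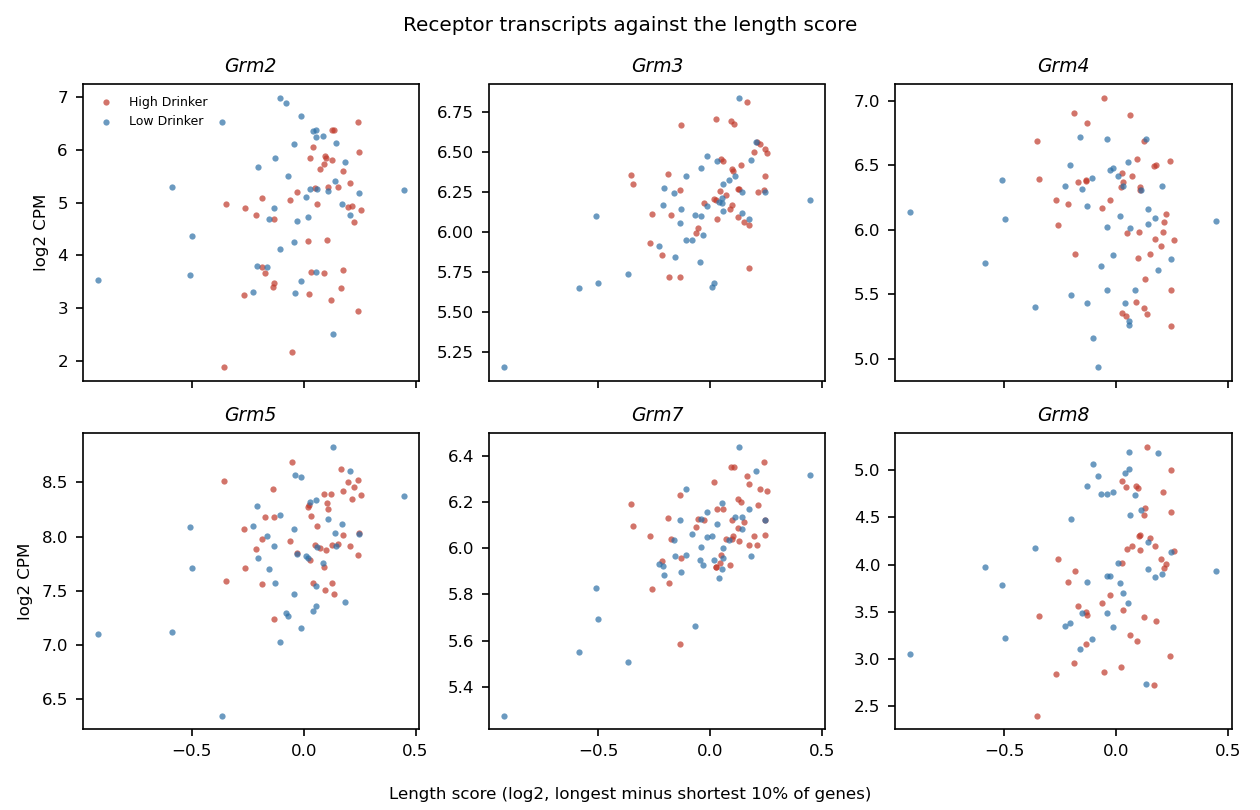
Log2 CPM of each receptor gene against the length score (median centred log2 CPM of the longest minus the shortest 10% of tested genes), 1 point per library, High Drinker in red and Low Drinker in blue. Grm7 and Grm3 climb with the score (r = 0.67 and 0.56), with the lowest library of both, Low Drinker 8, at the far left.

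Whether the wiring of the receptor genes differed between the lines was tested by permuting line labels within sex and sheet set. None of the 15 pairs passed, and 0 had an unadjusted permutation p under 0.05. Grm3 and Grm7 differed most, with residual r = 0.44 among High Drinker and 0.78 among Low Drinker animals, a difference of -0.34 (permutation p = 0.0671, adjusted p = 0.917). Without the 5 libraries with low correlation that difference was -0.24. For Grm2 and Grm8 r was 0.86 in both lines, with a difference of -0.0039.

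The genes most like each receptor were found by residual log2 CPM, with sheet set, sex and line removed, among 13374 genes over the 84 libraries. For Grm2 they were Wnt9a (r = 0.97), a secreted Wnt ligand, Car10 (0.97), a carbonic anhydrase-related protein, and Olfm2 (0.96), a secreted olfactomedin. For Grm8 they were Spock1 (0.94), a secreted proteoglycan, Rassf5 (0.93), a Ras effector, and Tmem200a (0.92). For Grm4 they were Bcr (0.95), Pard3 (0.94), a polarity scaffold, and Adcy5 (0.94), the main adenylyl cyclase of the striatum. For Grm5 they were Scn3a (0.95), a sodium channel subunit, Dgkb (0.95), a diacylglycerol kinase, and Osbpl8 (0.94), a lipid transfer protein. The closest genes of Grm3 were Vps13b (0.83), a lipid transport protein, Itpr1 (0.82), the calcium store channel opened by phospholipase C products, and Dgkh (0.82), another diacylglycerol kinase. Those of Grm7 were Med12l (0.83), a Mediator subunit, Kcng3 (0.82), a modifying potassium channel subunit, and Braf (0.82), a kinase of the MAP kinase cascade. The likeness was thus closer for the 4 genes that ran along with the tissue scores than for Grm3 and Grm7.

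The partners of the receptors were covered by 44 genes in 7 lists, all 44 of them tested. In the line comparison 2 of the 44 were higher in High Drinker animals and 0 lower, where 1.74% of tested genes were higher and 2.2% lower, and 6 of 44 had an unadjusted p under 0.05, where 18.3% of tested genes did. The sign was positive for 32 of the 44, against 8133 of the 16537 tested genes, and their median log2 difference was 0.04, beside a median of 0.09 for the 6 receptors and -0.0016 for all tested genes. Glul, which encodes glutamine synthetase and turns glutamate into glutamine inside astrocytes, ranged from 918 to 1341 CPM with a median of 1068 in High Drinker libraries, and from 706 to 1296 CPM with a median of 932 in Low Drinker libraries. Its High Drinker libraries sat towards the upper end of a shared range, and 41 of 44 lay above the Low Drinker median. Glul rose by 0.20 on the log2 scale (95% interval 0.12 to 0.29, adjusted p = 0.00122 in edgeR). Beside this astrocyte gene, the astrocyte marker score had a median of 0.04 among High Drinker and -0.03 among Low Drinker libraries, with 0 of its 8 markers past the threshold and a summed CPM from 631 to 1052 in High Drinker and from 562 to 1070 in Low Drinker libraries. The part of that score in the difference of Glul was not tested.

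Arrb1, which encodes beta-arrestin 1, an adaptor that uncouples activated receptors from G proteins, ranged from 338 to 518 CPM with a median of 434.4 in High Drinker libraries, and from 289 to 494 CPM with a median of 412 in Low Drinker libraries. The groups overlapped over most of that range, and 30 of 44 High Drinker libraries lay above the Low Drinker median. Arrb1 rose by 0.12 on the log2 scale (95% interval 0.05 to 0.18, adjusted p = 0.0168 in edgeR). With the length score in the model its log2 fold change was 0.08 and the adjusted p was 0.0807. Within sheet set 1 Glul passed (log2 fold change 0.25) and Arrb1 did not (0.10), and within sheet set 2, with fewer animals, neither passed (0.14 and 0.11).

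Members of the other lists did not pass. Homer1, the scaffold that ties mGlu5 to calcium stores, averaged 209 ± 41.03 CPM among High Drinker and 199 ± 48.4 CPM among Low Drinker animals, with a log2 fold change of 0.03 (adjusted p = 0.870 in edgeR). The postsynaptic adhesion proteins that recruit group III receptors across the synapse are encoded by Elfn1 and Elfn2. Elfn1 averaged 30.1 ± 8.47 CPM among High Drinker and 31.3 ± 6.28 CPM among Low Drinker animals, and Elfn2 averaged 115 ± 17.3 CPM among High Drinker and 111 ± 22.7 CPM among Low Drinker animals. Their log2 fold changes were -0.0043 and 0.10. None of the 12 scaffold genes, the 2 Elfn genes, the 6 G protein alpha subunits, the 9 effector enzymes and channels and the 3 genes of translation control passed.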

How the data were processed

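RNA of hand-dissected ventrolateral striatum was isolated with Trizol and made into amplified cDNA before library preparation and single-end sequencing, per the labels' protocols. Copies of 1 molecule made by that amplification may have been counted separately. No strand-marking kit is described, so how reads were assigned where genes overlap is not known. Whole-number read counts, not normalised, were deposited by the authors for each gene and animal. FastQC, STAR, featureCounts from Subread and edgeR with genome build mm10 are named in the submitters' processing notes, while the sources used here do not give versions or counting settings. The deposited table had 0 rows that name no gene and 0 columns of other samples, and 12117 genes were at 0 in every library.

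Counts were tested with edgeR 4.0.16 in R 4.3.3 (TMM, filterByExpr by line, quasi-likelihood F-test, model with sheet set, sex and line, Benjamini-Hochberg over 16537 genes, threshold 0.05). CPM of the receptors and their partners use TMM-scaled library totals, while CPM of marker genes and their sums use plain library totals. Log2 CPM, also those in the marker scores, use TMM-scaled totals and a prior count of 2. DESeq2 1.42.0, limma 3.58.1 (also the variability test) and sva 3.50.0 served alternatives, and Python 3.11.15 with scipy 1.17.1 the permutations. Sheet sets (48, 30 and 6 libraries) were inferred from the sample numbers that end the titles. High Drinker libraries fell 30, 11 and 3 and Low Drinker libraries 18, 19 and 3 into the sets. Replicate numbers follow accession order and pair nothing. Of 3486 library pairs 0 were identical. Symbols were found for 42462 identifiers in GENCODE, and Tamalin was matched as Grasp. The edgeR line test and the variability test, but not the other tests, were checked on simulated data. Members, gene lists, marker lists and tests were chosen with earlier results of these data known. The genes named were the 6 receptors, passing partners by smallest adjusted p together with Homer1, Elfn1 and Elfn2, and the 3 genes most like each receptor among those averaging at least 1 CPM with an established name.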

Additional observations from a re-analysis of the deposited data

How the results depend on the processing

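None of the 6 receptor genes passed in the line comparison under any of the 16 alternatives tried, nor in the sex, interaction and variability comparisons under theirs. The lowest adjusted p in the line comparison was 0.0704, for Grm3 with 5 surrogate variables. The line fold changes of the 6 genes kept their sign in 15 of the 16 alternatives. In females only, Grm2 was at 0.089, Grm4 at -0.029 and Grm8 at 0.20 on the log2 scale, against -0.47, 0.26 and -0.44 in males only.

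Of the 44 partner genes, 7 passed with 5 surrogate variables and 4 with the 2 tissue scores in the model, against 2 in the fit without them. The share of all tested genes that passed was 13.4% with 5 surrogate variables and 6.8% with the tissue scores, against 3.94%. With the length score 1 passed, in sheet set 1 only 1, and in sheet set 2, females or males only 0, with fewer animals in the last 3. Elfn1 and Homer1, which did not pass, changed sign in some settings. Elfn1 was at 0.022 without the 5 libraries with low correlation, 0.024 with the tissue scores, 0.035 in sheet set 2 and 0.067 in females. Homer1 was at -0.010 without those 5 libraries, -0.12 in sheet set 2, -0.0041 in males and -0.058 with the length score.

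The sex difference of Grm2 was -0.019 and that of Grm3 -0.0076 without the sheet set term, and that of Grm8 was 0.068 without the 5 libraries. That of Grm2 was 0.25 without them. With the tissue scores it was 0.27 for Grm2 (unadjusted p = 0.000191, adjusted p = 0.109 in edgeR), -0.014 for Grm3, -0.0057 for Grm5 and 0.072 for Grm8, and the interaction was -0.16 for Grm2, 0.012 for Grm4 and 0.011 for Grm7. The difference in deviation of Grm3 was 0.015 without the 5 libraries.

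The count of correlated pairs, 12 of 15, ran from 9 to 14 under 10 other settings. It was 4 after both tissue scores were removed and 7 after the length score was removed too. Those scores took the correlation to 0.052 for Grm2 and Grm4, -0.036 for Grm2 and Grm8, -0.0066 for Grm4 and Grm5 and 0.17 for Grm5 and Grm8. With the length score removed too it was 0.058 for Grm2 and Grm4, -0.029 for Grm2 and Grm8 and -0.23 for Grm4 and Grm5. Weak correlations changed sign, with Grm2 and Grm3 at 0.060 and Grm3 and Grm4 at -0.038 in sheet set 2. Grm3 and Grm8 were at -0.087 when CPM used library totals and at -0.17 after the length score was removed. Grm3 and the cortical score had a rho of -0.00077, r = -0.013 in High Drinker animals and r = -0.098 with library totals. The cause of these shifts was not tested. No paired analysis was possible because the labels give the animals no shared replicate numbers. The lowest count behind any value of the 6 genes was 112 reads.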
